A study of Rattus norvegicus with 6 samples.

Results

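Smooth muscle contractile genes are 9 genes of the contractile and cytoskeletal apparatus of vascular smooth muscle and mural cells: Acta2, Tagln, Myh11, Cnn1, Des, Mylk, Actg2, Tpm2 and Lmod1. They were chosen by symbol, through the RefSeq accession of each array probe, among 15645 genes with a symbol on the array, and each was represented by its brightest probe over the 6 arrays. All 9 had a probe, with 20 probes in all. RNA came from the renal cortex of male rats of the Sprague-Dawley strain, bought at 5 weeks of age and kept on a basal diet. The 3 control rats received corn oil for 4 weeks, and the 3 treated rats received carbon tetrachloride, a chlorinated solvent known as a liver toxicant, at 100 mg/kg/day for 4 weeks. The series' design text names benzyl acetate instead, whereas the title, sample labels and treatment protocol name carbon tetrachloride. Each rat gave 1 Cy3-labelled single-colour Agilent array, and precision is limited by having 3 per group.

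Smooth muscle cells shorten when calcium and calmodulin activate myosin light chain kinase, whose phosphorylation of the myosin light chain lets smooth muscle myosin pull on actin filaments. Tropomyosin, calponin and leiomodin act on the actin filament, and desmin forms intermediate filaments that carry the force. In the renal cortex these proteins mark the media of arteries and arterioles, and some of them mark mesangial cells, pericytes and, in fibrosis, myofibroblasts. Many of their genes are driven by serum response factor, which binds the CArG box, together with its partner myocardin. The CArG box is a DNA motif with a core of A and T between CC and GG.

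The Acta2 promoter is the textbook case of such control and is shown for that reason. The 250 bases before its start lie at chr1:241172504-241172753 (GRCr8, minus strand, RefSeq). The capitals mark the matches to the CArG box with 1 G or C allowed among the 6 bases of its core.

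Acta2 promoter: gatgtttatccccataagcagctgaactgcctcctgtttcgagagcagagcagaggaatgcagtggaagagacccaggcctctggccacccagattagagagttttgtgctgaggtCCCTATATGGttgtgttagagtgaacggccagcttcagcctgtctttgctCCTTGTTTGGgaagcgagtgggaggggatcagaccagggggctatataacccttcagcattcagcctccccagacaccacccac

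The matches lie 134 to 125 and 84 to 75 bases before the start. The motif is its own reverse complement, so both strands give the same matches. Of the 6 member genes with a promoter entry, 1 held such a match and 0 held an exact CArG box, while 8.08% of all 33469 promoters of this length held such a match and 1.5% an exact box. Matches are a description of these letters only.

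Carbon tetrachloride against corn oil asks which transcripts of the renal cortex differ after treatment. No smooth muscle gene passed the test: 0 of 8 tested members had a limma adjusted p under 0.05, as did 0.00321% of all 31193 tested transcripts, and 0 members had an unadjusted p under 0.05, against 6.27% of all transcripts. The log2 change (treated minus control) was above 0 for 7 of the 8, against 52.2% of all transcripts. Its median over the members was 0.22, against 0.0073 over all tested transcripts, and 9.90% of transcripts had a change above the members' median. The members' changes ran from -0.020 to 0.40, with adjusted p from 0.799 to 0.974. The highest, of Cnn1, is from a gene that entered the test through the treated group alone, so a change above 0 was favoured for it. Over the 7 members well above background on all 6 arrays the median was 0.21. In whole tissue, a change in the number of cells of a type and a change in RNA per cell cannot be told apart.

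**Figure D1:**
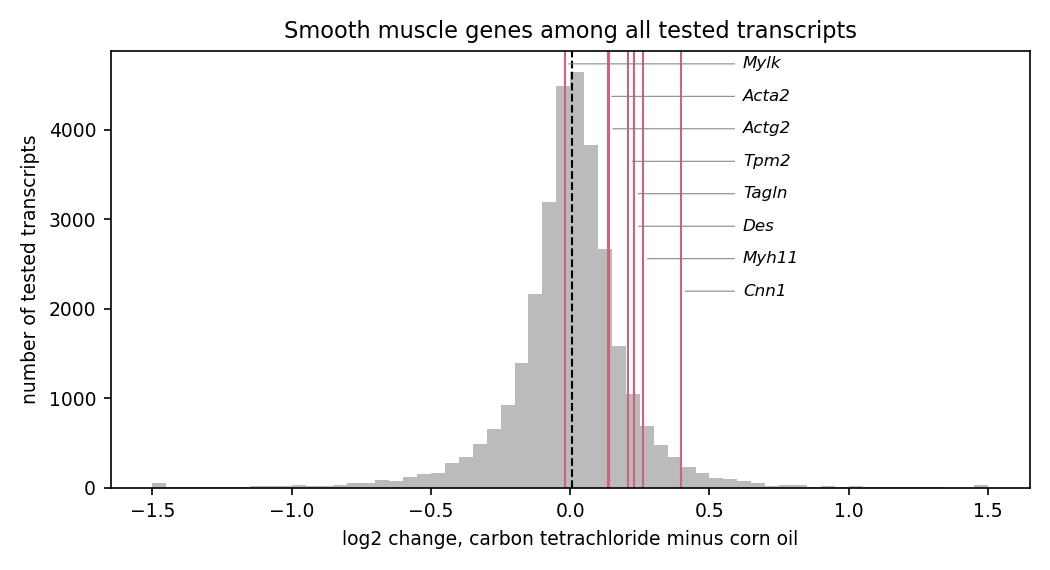
Histogram of the log2 change (carbon tetrachloride minus corn oil, x axis) of all tested transcripts (number on the y axis, values beyond the axis range counted in the end bins). The dashed line is the median of 0.0073 and the red lines are the 8 tested smooth muscle genes, from Mylk at -0.020 to Cnn1 at 0.40.

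The difference moved with single arrays. Corn oil replicate 3 had the lowest value of all 6 arrays for 6 of the 8 members and the lowest of the corn oil arrays for 7. Carbon tetrachloride replicate 2 had the highest value of all 6 for 5 members. The mean of the members, set against the corn oil mean, was 0.093, 0.070 and -0.16 on corn oil replicates 1 to 3 and 0.18, 0.25 and 0.17 on carbon tetrachloride replicates 1 to 3. The mean includes Cnn1, which entered the test through the treated group alone, so separation of the groups in it was favoured. Without corn oil replicate 3 the median log2 change of the members was 0.13 in place of 0.22, and without each other array it lay between 0.19 and 0.24. Carbon tetrachloride replicate 3 lay alone on a second slide with its own scan, and over the 5 arrays of the first slide the median was 0.22.

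**Figure D2:**
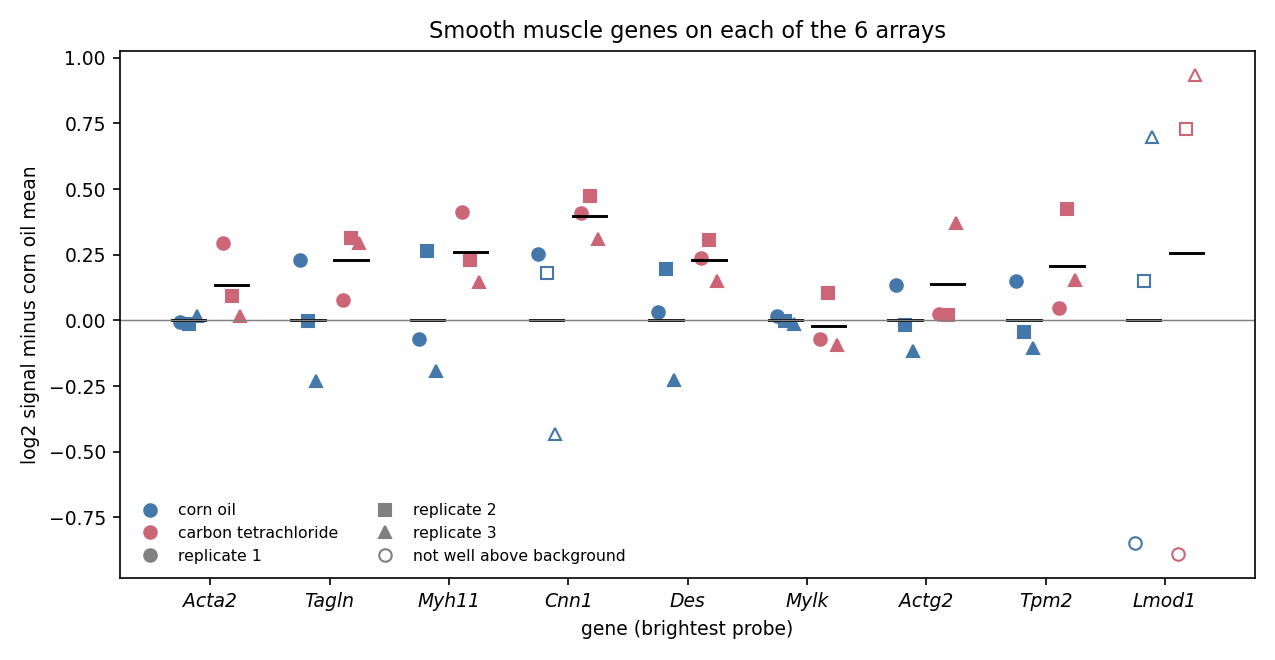
Log2 signal of each smooth muscle gene (x axis, brightest probe) on each array, minus the gene's corn oil mean (y axis). Colours are the groups, shapes the replicates, bars the group means of 3 arrays, and open symbols spots not well above background. Cnn1 is the tested gene whose groups do not overlap, and all values of Lmod1 are open.

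Values are given below as log2 signal relative to the 75th percentile of the array, a scale on which levels of different probes cannot be compared. Acta2 encodes the smooth muscle alpha actin of the thin filament. Its values were -0.85, -0.86 and -0.83 on corn oil replicates 1 to 3 and -0.55, -0.75 and -0.83 on carbon tetrachloride replicates 1 to 3. The control values lay close together, carbon tetrachloride replicate 1 stood highest, and the groups overlapped at the lowest treated value. The log2 change was 0.13 ± 0.09 (SE, n = 3 per group; limma adjusted p = 0.834), with a 95% interval of 0.943-fold to 1.28-fold, and it was 0.055 without carbon tetrachloride replicate 1. With another background correction (normexp) it was 0.083 or 0.087 by normalization.

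Actg2 encodes the gamma actin of smooth muscle, abundant in visceral muscle and close in sequence to the alpha actin, so a probe of either gene may also bind RNA of the other. Its brightest probe gave 2.56, 2.41 and 2.31 on the corn oil arrays and 2.45, 2.45 and 2.80 on the carbon tetrachloride arrays. Carbon tetrachloride replicate 3 was highest and the groups overlapped. This gave a log2 change of 0.14 ± 0.13 (adjusted p = 0.856), of 0.022 without that array and of 0.080 without corn oil replicate 3. The other 2 Actg2 probes were dimmer and gave 0.46 ± 0.24 and 0.57 ± 0.25, with adjusted p of 0.798 and 0.786 in the fit of single probes. Their mean had a log2 change of 0.52, and which probe reports Actg2 more specifically was not tested. On the dimmer probes carbon tetrachloride replicates 2 and 3 were above all corn oil arrays and replicate 1 was not. Related actins had 0.13 ± 0.13 for Actb and -0.05 ± 0.07 for Actg1, the cytoplasmic actins, and -0.14 ± 0.12 for Acta1 and 0.08 ± 0.08 for Actc1, the skeletal and cardiac actins.

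Myh11 encodes the smooth muscle myosin heavy chain, the motor of the thick filament and the member most restricted to smooth muscle. Its brightest probe gave -0.29, 0.041 and -0.42 on the corn oil arrays and 0.19, 0.0057 and -0.078 on the carbon tetrachloride arrays. Corn oil replicate 2 reached into the treated range, so the groups overlapped. The log2 change was 0.26 ± 0.14 (adjusted p = 0.820), with a 95% interval of 0.942-fold to 1.53-fold. It was 0.17 without corn oil replicate 3 and 0.39 without corn oil replicate 2. The other 3 probes gave 0.05 ± 0.12, 0.11 ± 0.12 and 0.32 ± 0.13. The last of these was the 1 of 18 tested member probes with an unadjusted limma p under 0.05 (adjusted p = 0.778), a result that 6.4% of all 42400 probes gave when tested alone, and its groups overlapped. Myh9, the nonmuscle myosin heavy chain of many cell types, had 0.23 ± 0.07 without overlap (adjusted p = 0.770). Such separation with higher treated values was seen for 7.5% of all tested transcripts.

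Mylk encodes myosin light chain kinase, and the locus also yields a nonmuscle form and the short protein telokin. Its brightest probe gave 2.79, 2.77 and 2.76 on the corn oil arrays and 2.70, 2.88 and 2.68 on the carbon tetrachloride arrays. The treated values lay on both sides of the controls. The groups differed by -0.020 ± 0.08 on the log2 scale (adjusted p = 0.974), with a 95% interval of 0.864-fold to 1.13-fold. The difference was -0.046 with normexp and turned sign without carbon tetrachloride replicate 1 (0.0049) or 3 (0.018). The other 3 probes gave 0.02 ± 0.12, 0.10 ± 0.12 and -0.17 ± 0.08. On the last of these all treated values were below all control values (adjusted p = 0.788). By the brightest probes, the groups did not overlap, in either direction, for 12.8% of all tested transcripts.

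Tpm2 encodes beta tropomyosin, which lies along the actin filament in smooth and striated muscle. Its brightest probe gave 2.54, 2.35 and 2.29 on the corn oil arrays and 2.44, 2.82 and 2.54 on the carbon tetrachloride arrays. Carbon tetrachloride replicate 2 stood highest and the groups overlapped. Treated minus control was 0.21 ± 0.13 on the log2 scale (adjusted p = 0.830), and 0.099 without that array. The second probe gave 0.18 ± 0.14 and the third -0.12 ± 0.15, where carbon tetrachloride replicate 2 was the lowest array at -1.69. Tpm1, the alpha tropomyosin gene, had 0.11 ± 0.10.

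**Figure D3:**
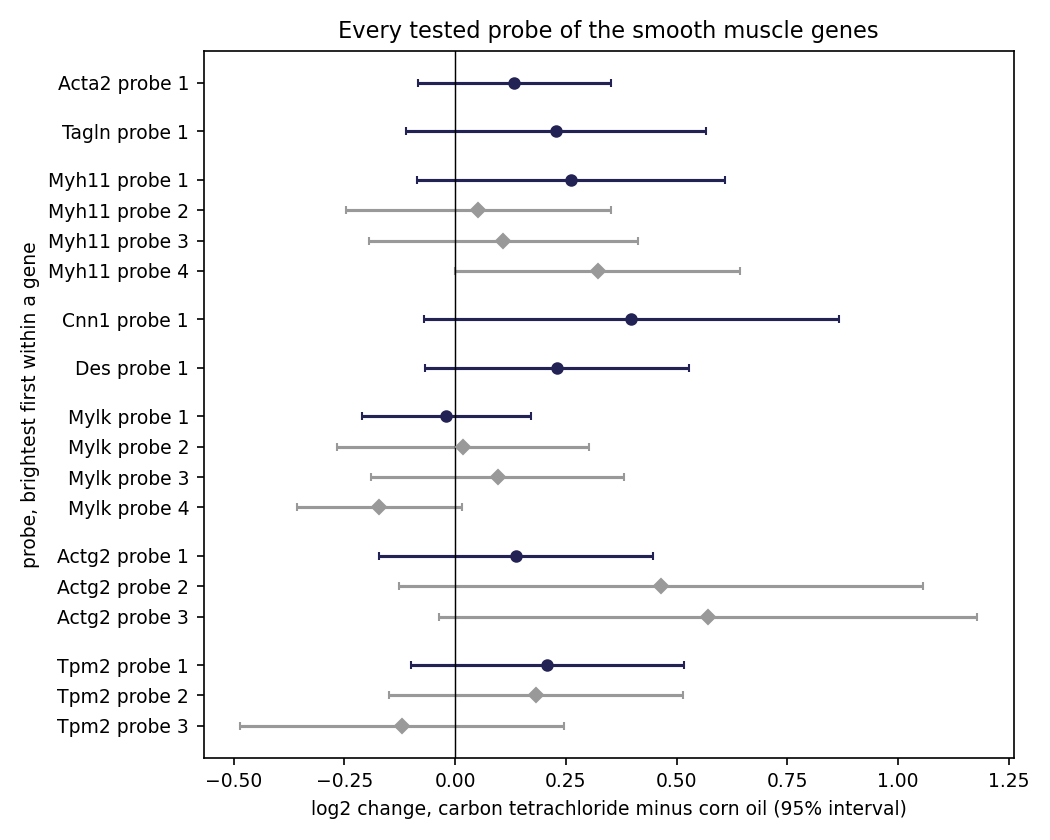
Log2 change of the 18 tested probes (x axis, carbon tetrachloride minus corn oil, point with 95% interval from limma) by gene (y axis, brightest probe first in dark circles, others in grey diamonds). The probes of Actg2 run from 0.14 to 0.57 and those of Tpm2 from -0.12 to 0.21.

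Tagln encodes transgelin (SM22), an actin-binding protein of smooth muscle. Its single probe gave 0.63, 0.40 and 0.17 on the corn oil arrays and 0.47, 0.71 and 0.69 on the carbon tetrachloride arrays. Corn oil replicate 1 lay inside the treated range. The log2 change was 0.23 ± 0.14 (adjusted p = 0.830). Leaving out corn oil replicate 3 gave 0.11, and leaving out corn oil replicate 1 gave 0.34. Its relative Tagln2 had 0.03 ± 0.10.

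Cnn1 encodes calponin, an inhibitor of actin-activated myosin of differentiated smooth muscle. Its probe was dim, well above background on 1 of 3 corn oil arrays and all 3 carbon tetrachloride arrays. It gave -5.94, -6.02 and -6.63 on the corn oil arrays and -5.79, -5.72 and -5.88 on the carbon tetrachloride arrays. All treated values were above all control values, as for 7.5% of all tested transcripts (12.8% in either direction). This gene entered the test through the treated group alone, so separation in that direction was favoured. Its log2 change was 0.40 ± 0.19 (adjusted p = 0.799), 0.18 without corn oil replicate 3, and 0.17 and 0.13 with normexp. Cnn3 had -0.03 ± 0.07.

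Des encodes desmin, the intermediate filament of muscle, which rodent mesangial cells and injured podocytes also make. Its probe gave -1.06, -0.89 and -1.31 on the corn oil arrays and -0.85, -0.78 and -0.94 on the carbon tetrachloride arrays. Corn oil replicate 2 lay inside the treated range and corn oil replicate 3 stood lowest. The log2 change was 0.23 ± 0.12 (adjusted p = 0.817), 0.12 without corn oil replicate 3, and 0.13 with normexp and all arrays. Lmod1 encodes leiomodin, which starts actin filaments in smooth muscle. It was not well above background on any array with either of its 2 probes, so it was not tested and no fold is given.

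The members did not all order the arrays alike, a pattern seen after the values were examined. By the brightest probes, Tagln, Cnn1, Mylk, Actg2 and Tpm2 were highest of the corn oil arrays on replicate 1, Myh11 and Des on replicate 2 and Acta2 on replicate 3. Probes of a gene could differ in this, as the second Myh11 probe was highest on corn oil replicate 1 (-1.29, against -1.64 on replicate 2). Among the carbon tetrachloride arrays Tagln, Tpm2, Cnn1, Des and Mylk were highest on replicate 2, Acta2 and Myh11 on replicate 1, and the brightest Actg2 probe on replicate 3. The spread within groups had a median SD of 0.17 over the members, against 0.14 over all tested transcripts. Over the 7 members well above background on all arrays it ran from 0.078 for Mylk to 0.19 for Myh11. The SD of 0.27 for Cnn1 rests in part on corn oil values not well above background. The range over all 6 arrays, treated and control together, was 1.15-fold for Mylk, 1.24-fold for Acta2 and 1.52-fold for Myh11.

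Genes whose values over the 6 arrays followed the mean of the tested members most closely were taken by the smallest root mean square difference of centred log2 values. They were Nr2c2 (0.027), Nipal2 (0.030), Zbtb39 (0.031), Ankrd13d (0.039) and Pcdhga7 (0.041). The members themselves differed from their own mean by 0.070 for Des to 0.17 for Cnn1. With 6 arrays this likeness is a description.

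The wider contraction pathway had 0 calls. Of 27 tested genes of the contractile apparatus and its adhesions, 0 passed the limma threshold. An unadjusted p under 0.05 was found for 2 of them, against 6.27% of all transcripts. Of the 27, 19 were higher and 8 lower, with a median log2 change of 0.029. Itga8, an integrin chain of mesangial and smooth muscle cells, had 0.31 ± 0.11 without overlap. Treated values were all higher, as for 7.5% of all tested transcripts. Pgm5, a partner of adhesion plaques, had -0.37 ± 0.32 and Csrp1, a LIM protein, -0.09 ± 0.08. Myl9, the smooth muscle regulatory light chain, singled out after its value was seen, had 0.01 ± 0.10.

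Contraction signalling, with 29 tested genes, had 12 higher and 17 lower, a median of -0.023 and 0 past the threshold. It had 2 genes at an unadjusted p under 0.05, a result of 6.27% of all transcripts. Ednra, the endothelin receptor of vascular smooth muscle, had -0.31 ± 0.09 (adjusted p = 0.765), and Kcnmb1, the beta subunit of the calcium-activated potassium channel that relaxes smooth muscle, had -0.36 ± 0.13. Both were lower on all treated arrays than on all control arrays. The groups did not overlap, in either direction, for 12.8% of all tested transcripts. Pln, an inhibitor of the calcium pump, had 0.32 ± 0.13 and Arhgef1, an activator of RhoA, 0.14 ± 0.07. Of 13 tested transcription regulators 8 were higher and 5 lower, with a median of 0.021, 1 at an unadjusted p under 0.05 and 0 past the threshold. Srf, the serum response factor, had 0.13 ± 0.10, Elk4, one of its partners, 0.08 ± 0.07, Tcf21, a factor of stromal cells and podocytes, -0.51 ± 0.16 and Hey1, a Notch target, -0.31 ± 0.25. Myocd, the myocardin gene, singled out after its value was seen, had -0.10 ± 0.15.

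Markers of neighbouring cell types are given beside the members. Mural, mesangial and juxtaglomerular markers had 8 of 17 tested higher and a median of -0.00089, with 0 past the threshold. An unadjusted p under 0.05 was found for 2 of them, against 6.27% of all transcripts. These were Rgs5, a pericyte gene, with 0.17 ± 0.06, and Itga8, which is also counted in the contractile apparatus list. Vtn had -0.79 ± 0.37 and Kcnj8, a pericyte channel, -0.36 ± 0.20. In none of the other lists did a gene pass the limma threshold. Endothelial markers had 9 of 11 higher with a median of 0.076 and 2 at an unadjusted p under 0.05. Fibroblast and matrix markers had 3 of 11 higher with a median of -0.18 and 2 at an unadjusted p under 0.05, and striated muscle markers 6 of 11 higher with a median of 0.022 and 0 at an unadjusted p under 0.05. Leukocyte markers had 1 of 10 higher with a median of -0.37, the largest shift of these lists, and 4 at an unadjusted p under 0.05: Cd8b (-0.98), Cd3g (-1.01), Cd3e (-1.11) and Cd8a (-0.70), all lower on every treated array than on every control array. All 11 renal cortex epithelial markers were well above background on all 6 arrays and had a median of 0.050, with 1 at an unadjusted p under 0.05. On corn oil replicate 3, the array lowest for most members, the list means also lay below the corn oil mean for mural (-0.15), fibroblast (-0.18) and leukocyte (-0.21) markers. Contraction signalling (-0.066), endothelial (-0.045), striated muscle (-0.031) and contractile apparatus (-0.030) lists lay below it too. The epithelial list was at 0.0012 and the transcription regulators at 0.0086. On the carbon tetrachloride arrays the mean of the fibroblast list was -0.37, -0.065 and -0.030 and that of the mural list -0.096, 0.029 and -0.085. The mean was above 0 on each of these arrays for the members, but also for the endothelial list (0.16, 0.12 and 0.059), the epithelial list (0.16, 0.0054 and 0.050) and the contractile apparatus list (0.0088, 0.049 and 0.053). Means of the epithelial and leukocyte lists also lay apart between the groups, as those of the members, Cnn1 included, did. The epithelial list was higher, with a lowest treated mean of 0.0054 beside a highest corn oil mean of 0.0012. The leukocyte list was lower, at -0.31, -0.39 and -0.42 on carbon tetrachloride replicates 1 to 3. The part of cell composition in the members' values was not tested.

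**Figure D4:**
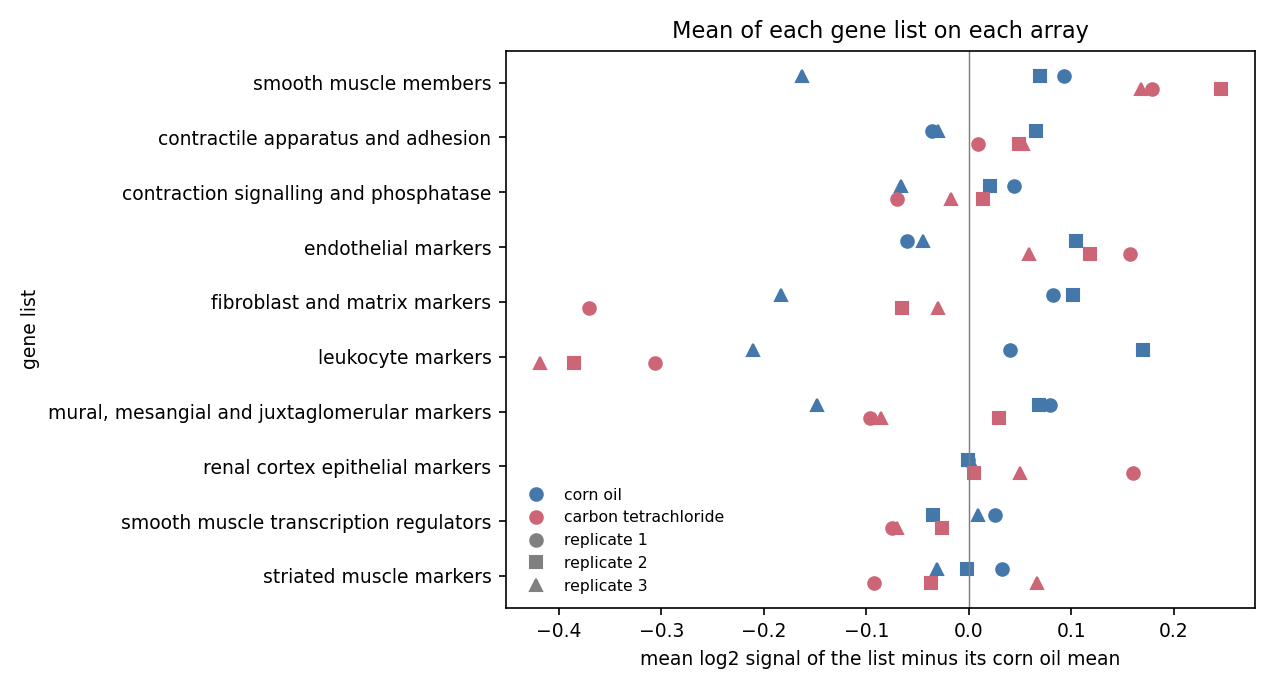
Mean log2 signal of each gene list on each array minus its corn oil mean (x axis), by list (y axis), with colours for the groups and shapes for the replicates. The 8 tested smooth muscle members lie at 0.17 to 0.25 on the carbon tetrachloride arrays, and corn oil replicate 3 lies at -0.16.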

How the data were processed

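The intensity of each spot was taken from the deposited scanner files, which were extracted per the file headers with Agilent Feature Extraction 10.7.1.1 (10.7 per the submitters' processing notes), which gives a background-subtracted linear signal. The values used are log2 of that signal minus each array's 75th percentile. The 1439 control spots and the spots with an outlier flag (0 to 25 an array) were left out. Testing required a probe to be well above background throughout 1 or both groups, 68.5% to 72.1% of 61537 probes being so on an array. Of the probes 45.8% matched a RefSeq symbol by accession (GRCr8, for names), and the brightest tested probe stood for a gene. The comparison used limma 3.58.1 (R 4.3.3), two-sided, with Benjamini-Hochberg adjustment over 31193 transcripts and a threshold of 0.05. The samples are biological replicates per the design text. Named genes are the members, their close relatives, the 5 most alike genes and, of the contraction pathway lists and the mural list, up to 2 higher and 2 lower of smallest p. The members and lists were chosen with earlier results of these data known. The code was tested on simulated data. The files hold 0 columns of other samples, and the deposited value table, an intensity divided by 1 factor per array (1015 to 1092), was an alternative. Same-numbered arrays of both groups were treated as unpaired. Their deviations from the group means correlated at -0.023, -0.097 and -0.079, against -0.045 to 0.13 for differently numbered arrays. These correlations cannot show how animals were assigned.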

Additional observations from a re-analysis of the deposited data

How the results depend on the processing

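In limma, 0 members passed the threshold in all 19 other settings. Without corn oil replicate 1, 2 of 8 members had an unadjusted p under 0.05 (Tagln and Cnn1), against 1518 of 31193 transcripts. Without corn oil replicate 2, 2 of 8 did (Myh11 and Des), against 1553 of 31193. Cnn1 entered the test through the treated group alone. The members' median of 0.22 ran from 0.13 to 0.24 over all settings. Without single arrays it also ran from 0.13 to 0.24, and it was 0.16 and 0.13 with normexp. The tested members other than Mylk kept their sign in every setting that held them, and Cnn1 was not tested where all 6 arrays had to be above background. Mylk turned to 0.018 with the slide as a block, within slide 1 or without carbon tetrachloride replicate 3, which are the same fit, and to 0.0049 without carbon tetrachloride replicate 1, with a range of -0.082 to 0.018 without single arrays. With the replicate number as a block the median was 0.22 and 0 members passed. The correlations between arrays gave no sign of such pairing but cannot show how animals were assigned. Among all transcripts, 1 passed the threshold in the main setting, and 0 did with normexp, without a filter, with the filter on all arrays, with trend and robust fitting and with the replicate or slide block, while 0 to 2 did without single arrays. The causes were not tested. Signal near background limits Cnn1 and Lmod1.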
